A study of Mus musculus with 8 samples.

Results

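Mouse spleen B cells that had been treated with an antibody against CD40 for 2 days (CD40-activated) were compared with B cells taken straight from the spleen (naive control), on 2 arrays each of the 8 arrays in the series. Both groups came from male mice of strain B6/J (breed C57BL6). Their B cells were enriched by magnetic depletion of cells carrying CD43, a surface protein that most resting B cells lack. Naive control cells went directly to RNA extraction and were never cultured. Of the 25349 probe sets of the table, the 22225 with 1 gene symbol were used, which gave 21515 genes after the brightest probe set of each gene was taken. A second control appears only as a reference: the 2 YFP control arrays hold B cells of female (C57BL6XBALBc) F1 mice carrying YFPflSTOP/+, a reporter silent until its stop cassette is cut out. These cells, also from CD43-depleted spleen, were given the cell-permeable recombinase TAT-Cre and sorted for YFP by flow cytometry 2 days later. The labels name no anti-CD40 for them, and they differ from the activated cells in strain, sex, TAT-Cre, sort and array set. The remaining 2 arrays (LMP1, cells of LMP1flSTOP/YFPflSTOP mice handled like the YFP controls) entered only the shared estimate of the spread. The labels give the YFP control and LMP1 arrays as re-analysed from earlier work. The labels give no animal ages and call the replicates biological without naming animals, so p-values measure the spread between these arrays.

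CD40 is a receptor of the tumour necrosis factor receptor family on B cells, and its ligand is carried by activated helper T cells. Clustered CD40 recruits TRAF adaptors, which start the canonical and the alternative NF-kB pathways and stress kinases. In the spleen this signal is known to bring resting B cells into growth and division, to raise their capacity to present antigen and costimulate T cells, and to be needed for germinal centres. In this comparison the antibody and the time in culture changed together, so their effects cannot be told apart. In bulk RNA, fewer cells of a type and less RNA per cell cannot be told apart either.

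Values are log2 expression levels. The table holds no detection call, so a fold that involves a level near or below the array medians may be a lower bound. Array medians lay between 5.52 and 5.68, and replicates correlated across genes with r = 0.993 for CD40-activated and 0.981 for naive control arrays. Between replicates, 34 genes differed by over 1 log2 in CD40-activated, 364 in naive control and 950 in YFP control cells. Of the defining B cell markers 9 were measured, and their mean level was 11.33 on each naive control array and 11.56 and 11.50 on the CD40-activated arrays, far above the array medians. Of these markers 1 rose (11.1%, against 11.0% of all genes), Ms4a1 (CD20), and 0 fell, with a median change of 0.11.

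Markers of T cells, NK cells and red cells were lower on the CD40-activated arrays. All 10 measured T cell markers fell, with a median of -2.39, and the mean level of the list was 8.66 and 8.43 on the naive control arrays against 6.13 and 5.83 on the CD40-activated arrays. Cd3e, a subunit of the T cell receptor complex, was at 9.96 and 9.39 on the naive control arrays and 6.68 and 6.11 on the CD40-activated arrays. Of 9 NK cell markers 7 fell (median -2.66) and of 11 erythroid markers 10 fell (median -3.16), with Slc4a1, the red cell anion exchanger, at 11.15 and 9.39 on the naive control arrays and 5.27 and 5.47 on the CD40-activated arrays. Its change was -4.02 without naive control 1 and -5.78 without naive control 2, and the erythroid mean level was 9.02 on naive control 1 and 7.57 on naive control 2. Of all genes 11.0% rose and 6.65% fell. Neutrophil markers fell for 1 of 11 (9.09%), and monocyte and macrophage markers rose for 2 (15.4%) and fell for 3 (23.1%) of 13. Dendritic cell markers rose for 2 (25%) and fell for 2 (25%) of 8, and platelet markers fell for 3 of 6 (50%). The 3 that fell became 1 without naive control 1 or either CD40-activated array for monocytes and macrophages, and 1 without either CD40-activated array for platelets. For dendritic cells the 2 that rose became 1 without naive control 2 or either CD40-activated array, and the 2 that fell became 1 without naive control 1, CD40-activated 2 or either LMP1 array. The neutrophil count became 0 without naive control 1, either CD40-activated array or either LMP1 array. Against the sorted YFP control cells, the CD40-activated medians for T cell, NK cell and erythroid markers were -0.04, -0.23 and -0.08. Some genes that T or NK cells also express are given below with their CD40-activated minus YFP control values. Other falls are given without that value, and the part of T, NK or red cells in them was not tested.

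**Figure D1:**
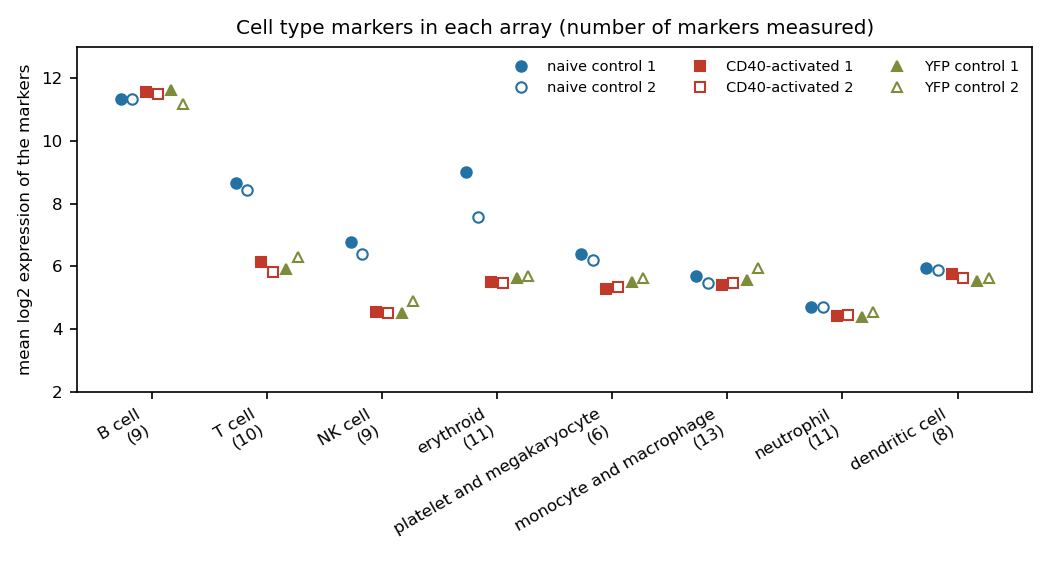
Mean log2 level of 8 marker lists (vertical axis) on each of the 2 naive control, 2 CD40-activated and 2 YFP control arrays (points, horizontal axis by list). The B cell mean is above 11 on all 6 arrays, while the T cell mean is at 8.66 and 8.43 on the naive control arrays and between 5.83 and 6.31 on the other 4.

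Of 21515 genes, 3803 (17.7%) changed at an adjusted p under 0.05 by limma with Benjamini-Hochberg adjustment, 2373 of them higher (11.0%) and 1430 lower (6.65%) in CD40-activated cells. A change of at least 1 log2 was reached by 1154 higher genes (5.36%) and 641 lower genes (2.98%). Both activated arrays lay above both naive arrays at 28.4% of genes and below both at 31.2%. The split depended on scaling: the 62.4% of changed genes that were higher became 74.3% (2808 of 3781) with array medians subtracted and 52.6% (1751 of 3330) with the 4 arrays of each set quantile-normalized apart. The median change over all genes was -0.05, and 0.055 and -0.0025 under those scalings. With 1 array left out the count was 1592 and 1576 without CD40-activated 1 and 2, 2658 without naive control 2 and 5631 without either YFP control array. Of 608 genes that passed, were list members or chosen by rank, and were tested again with each array left out, 327 passed in all 8 fits.

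**Figure D2:**
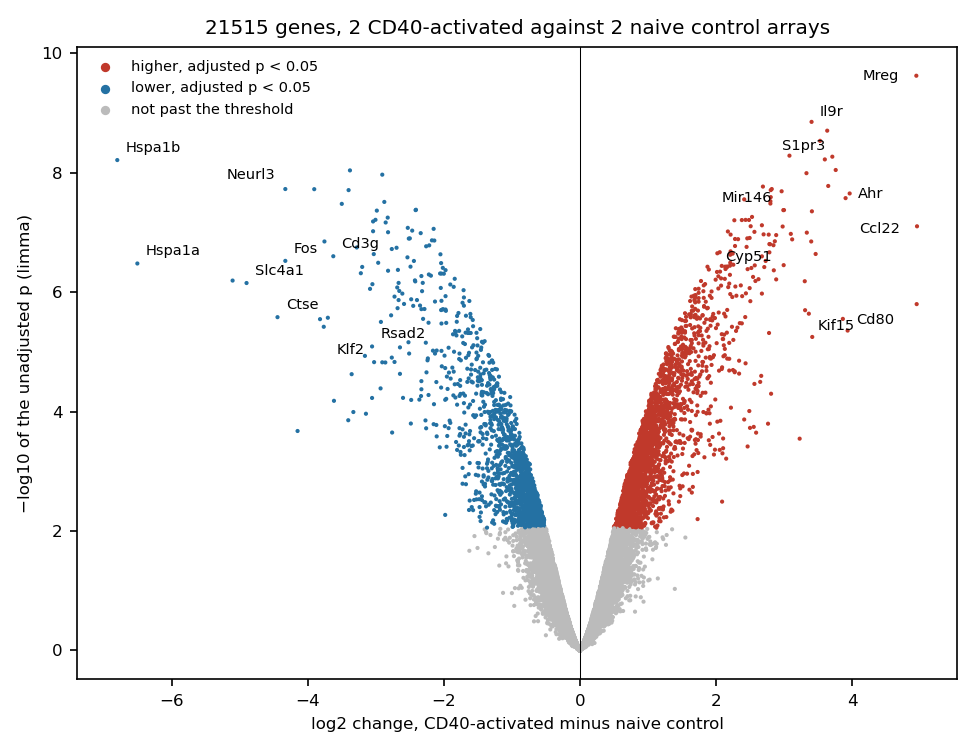
Change of each of 21515 genes, CD40-activated minus naive control (horizontal axis, log2), against its unadjusted p by limma (vertical axis, −log10). Colour marks genes with an adjusted p under 0.05. Of these, 2373 lie to the right of 0 and 1430 to the left, and Hspa1b is farthest to the left at -6.80.

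In the receptor's own pathway single genes passed the test. Of 15 measured genes for CD40, its TRAF adaptors and their kinases 4 rose (26.7%) and 1 fell (6.67%), with a median of 0.19. The shares of all genes were 11.0% and 6.65%. Traf1, an adaptor that is itself a classic target of NF-kB, was at 8.06 and 7.74 on the naive control arrays and 9.59 and 9.57 on the CD40-activated arrays, and rose by 1.68 ± 0.17 (log2 change with SE, n = 2 arrays per group, adjusted p = 0.000219). The YFP control arrays, at 8.10 and 7.93, lay far below the activated arrays. Cd40 itself was at 9.20 and 8.79 on the naive control arrays and 10.02 and 9.95 on the CD40-activated arrays and rose by 0.99 ± 0.24. Tank, a regulator bound to TRAF proteins, rose by 1.55 and the kinase gene Map3k7 (TAK1) by 0.77. Traf5, another adaptor of the receptor, fell by 1.50 ± 0.20, from 9.12 and 9.12 to 7.52 and 7.72. Traf2, Traf6 and the kinase subunit Ikbkb had changes of 0.29, 0.22 and -0.74 that did not pass. The number of members that rose was 2 without naive control 2 or either CD40-activated array. Cd40 and Map3k7 did not pass without naive control 2 or either CD40-activated array.

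NF-kB subunits and their feedback inhibitors rose for 3 of 17 members and fell for 0, and the count that rose was 1 without either CD40-activated array and 5 without either YFP control array. Zc3h12c, an RNase of the regnase family that limits inflammatory mRNAs, was at 5.75 and 5.81 on the naive control arrays and 9.61 and 9.76 on the CD40-activated arrays, a rise of 3.91 ± 0.25 or 15-fold (adjusted p = 2.49e-05). Nfkbie, an inhibitor that holds NF-kB in the cytoplasm, was at 9.44 and 9.13 on the naive control arrays and 10.88 and 10.84 on the CD40-activated arrays and at 9.57 and 8.24 on the YFP control arrays. It rose by 1.58 ± 0.34 (adjusted p = 0.0117). Tnfaip3 (A20), which ends signalling by removing ubiquitin, rose by 0.78. The subunit genes Nfkb2, Rel, Rela and Relb were at 0.62, 0.33, 0.10 and -0.03 and did not pass. Against the YFP control 7 members were higher and 1 lower, among them Nfkb2 by 2.22, Nfkbia by 1.24 and Relb by 1.06. The YFP control minus naive control values of those 3 genes were -1.61, -1.05 and -1.09. Nfkbie did not pass without naive control 2 or either CD40-activated array, and Tnfaip3 without either CD40-activated array.

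The promoter of Nfkbie is printed because its gene rose and holds a match to the consensus NF-kB site. Promoters here are the 250 bases before the annotated gene start in RefSeq (GRCm38.p6), read 5′ to 3′ on the gene's strand, with matches on either strand in capitals. Such an entry existed for 16626 of the 21515 genes, and a gene with several annotated starts had several entries. Promoter counts and shares, here and below, are per gene: a gene counted once, as matched if any of its entries held a match. The stretch lies at chr17:45555450-45555699 on the plus strand, with its match at position -106 from the start.
Nfkbie: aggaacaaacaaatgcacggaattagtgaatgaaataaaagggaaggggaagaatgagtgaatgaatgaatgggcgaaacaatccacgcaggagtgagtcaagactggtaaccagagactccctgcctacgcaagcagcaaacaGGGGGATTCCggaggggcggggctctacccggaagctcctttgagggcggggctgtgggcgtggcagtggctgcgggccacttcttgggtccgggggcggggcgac
A match was present in 8 of 14 promoters of the NF-kB list (57.1%), in 4.87% of the promoters of all genes tested, in 5.21% of those of genes that rose and in 6% of those of genes that fell. A match is a string of letters and says nothing of binding.

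Cytokine genes moved singly. Cytokines and chemokines rose for 19.2% and fell for 7.69%, against 11.0% and 6.65% of all genes. Of 26 cytokines and chemokines 5 rose and 2 fell, and the count that rose was 3 without either naive control array or CD40-activated 1. Tnf, the founding cytokine of the TNF family, was at 7.55 and 7.69 on the naive control arrays and 9.71 and 9.60 on the CD40-activated arrays, and at 7.55 and 7.91 on the YFP control arrays. It rose by 2.04 ± 0.18, a 4.1-fold difference (adjusted p = 8.74e-05), and was 1.93 above the YFP control (adjusted p = 0.00019). Ccl22, a chemokine that draws CCR4-bearing T cells, was at 10.34 and 9.77 on the CD40-activated and at 9.67 and 10.88 on the YFP control arrays, both far above the naive 4.91 and 5.29. Its rise was 4.96 ± 0.35 in activated cells and 5.18 in the YFP control, and the difference of -0.22 between them did not pass (adjusted p = 0.743). Ebi3, a subunit of paired interleukins of the interleukin 12 family, rose by 1.39, and Lta, the lymphotoxin alpha gene, by 0.72, while the inflammatory cytokine Il1b fell by 1.42. Ccl5, which T and NK cells make in quantity, fell by 1.76, with a CD40-activated minus YFP control value of -0.07. Il6 (-0.28), Il10 (-0.06) and Il12b (-0.17) did not pass. Lta did not pass without either naive control array, either CD40-activated array or either LMP1 array, and Il1b without naive control 1 or either CD40-activated array.

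Among 25 cytokine receptor genes 1 rose and 7 fell, the latter count being 4 without either CD40-activated array. The riser was Il9r, the specific chain of the interleukin 9 receptor, at 6.99 and 6.93 on the naive control arrays and 10.31 and 10.42 on the CD40-activated arrays. On the YFP control arrays it was at 5.94 and 6.02, so the activated arrays lay above all 4 control arrays. The rise was 3.41 ± 0.16 against naive cells (10.6-fold, adjusted p = 1.42e-05) and 4.39 against the YFP control (adjusted p = 8.89e-07). Il10ra, the ligand-binding chain for interleukin 10, fell by 1.78, with -1.28 against the YFP control. Il2rb, Il18r1 and Il7r, which T or NK cells carry, fell by 2.91, 2.04 and 1.66, with CD40-activated minus YFP control values of -0.45, -0.29 and 0.82. The T and NK cell markers that fell with them have medians of -2.39 and -2.66, and their part in these 3 changes was not tested.

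Surface molecules that B cells use to address T cells changed unevenly. Costimulatory ligands rose for 33.3% and fell for 8.33%, against 11.0% and 6.65% of all genes. Of 12 costimulatory ligands 4 rose and 1 fell, the count that rose being 2 without either CD40-activated array. Cd80 (B7-1), a ligand of CD28, was at 4.75 and 4.67 on the naive control arrays and 8.75 and 8.54 on the CD40-activated arrays and rose by 3.94 ± 0.43. The YFP control arrays were apart from each other for this gene, at 6.46 and 8.23, and the difference from them (1.30) did not pass (adjusted p = 0.0772). Cd86 (B7-2), the other CD28 ligand, had a change of -0.54 that did not pass. Tnfsf4 (OX40 ligand) rose by 1.70 and the adhesion ligand Icam1 by 1.05, whereas Tnfsf8 (CD30 ligand) fell by 1.08. Of 15 coinhibitory ligands and receptors 3 rose and 3 fell. Lilrb4a, an inhibitory receptor of myeloid and activated lymphoid cells, was at 7.84 and 6.75 on the naive control arrays and 12.23 and 12.26 on the CD40-activated arrays, a 30.9-fold rise (adjusted p = 0.000165). Havcr1 (TIM-1), a marker of regulatory B cells, rose by 2.79 and Cd274 (PD-L1) by 0.97, while Vsir (VISTA) fell by 1.87. Among these genes Icam1 did not pass without either CD40-activated array, and Cd274 without naive control 2 or either CD40-activated array.

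In the TNF receptor family 2 of 16 members rose (12.5%) and 3 fell (18.8%), against 11.0% and 6.65% of all genes. The count that fell was lower without CD40-activated 1. Those that rose were the death receptor genes Tnfrsf10b and Fas, by 1.77 ± 0.18 and 1.51 ± 0.25. Fas was at 6.71 and 6.84 on the naive control arrays and 8.47 and 8.09 on the CD40-activated arrays and at 6.04 and 6.81 on the YFP control arrays, so the activated arrays stood above all 4 controls. Cd27, a receptor of memory B cells and of T cells, fell by 2.53, with a CD40-activated minus YFP control value of 0.06. Of 15 surface markers of B cell activation 4 rose and 3 fell, and the count that rose was 2 without either CD40-activated array. Ly6d, a GPI-anchored lymphocyte antigen, rose by 1.31, and Cd44 and Cd83 by 0.91 and 0.86. Cd69, an early activation marker that holds lymphocytes in tissue, fell by 1.27, and Cd24a, high on immature B cells, by 1.44. Cd44 did not pass without naive control 2 or either CD40-activated array, Cd83 without either CD40-activated array, and Cd69 without CD40-activated 1.

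Few genes of the antigen receptor passed the test: of 23 members 2 rose (8.7%) and 1 fell (4.35%), against 11.0% and 6.65% of all genes. Without either YFP control array these counts were 8 and 4, and with array medians subtracted 5 genes rose. Cd81, a tetraspanin of the cell surface, rose by 1.42 ± 0.21 and the Ras activator Rasgrp3 by 1.32 ± 0.18, while Syk, the kinase that starts the receptor's signal, fell by 1.45 ± 0.20 from 10.92 and 11.09 to 9.52 and 9.60. Of 10 Fc receptor and Fc receptor-like genes Fcrl5, a receptor for IgG on B cells, rose most, by 3.87 ± 0.40, and Fcgrt, the neonatal Fc receptor, fell by 2.14 ± 0.16. For Fcrl5 the YFP control arrays were at 8.47 and 10.11, 1 of them near the CD40-activated 10.64 and 10.51.

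Transcription factors of the B lineage moved both ways, 10 of 27 up and 6 down. The count that rose was 6 without naive control 2 or either LMP1 array or with quantile normalization within each array set and 5 without either CD40-activated array, and the count that fell 2 without CD40-activated 1. Bhlhe40, a repressor of the basic helix-loop-helix family, was at 7.85 and 7.91 on the naive control arrays and 10.68 and 10.50 on the CD40-activated arrays and rose by 2.71 ± 0.23 (adjusted p = 7.25e-05). Its relative Bhlhe41 rose by 2.11, and Myb, a factor of proliferating progenitors, by 1.65. Factors of the plasma cell path also rose, Xbp1 by 1.50, Pou2af1 (OCA-B) by 1.06, Irf4 by 0.99 and Prdm1 (BLIMP-1) by 0.70. Bach2 and Bcl6, which hold B cells back from that path, fell by 1.10 and 0.97. Bach2 was at 10.36 and 10.11 on the naive control arrays and 9.06 and 9.22 on the CD40-activated arrays and at 11.18 and 10.71 on the YFP control arrays, and the difference from the latter was -1.81 (adjusted p = 0.000495). Tbx21 (T-bet) and Id2, which T and NK cells also express, fell by 1.31 and 1.43, with CD40-activated minus YFP control values of -1.05 and -1.05 that passed too. Pax5, the identity factor of B cells, was at 10.11 and 10.28 on the naive control arrays and 10.18 and 9.92 on the CD40-activated arrays, a difference of -0.15 that did not pass. Of the factors named, Irf4 did not pass without either CD40-activated array, Prdm1 without either naive control array, either CD40-activated array or either LMP1 array, and Bach2 and Bcl6 without CD40-activated 1.

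The plasma cell list rose for 6 of 15 genes and fell for 4, with 3 higher without CD40-activated 2. Slamf7, a surface receptor of plasma cells, rose by 2.02 and the degradation factor Edem1 by 1.14. Jchain, which joins IgM and IgA into polymers, was at 7.20 and 6.95 on the naive control arrays and 4.81 and 4.66 on the CD40-activated arrays and fell by 2.34 ± 0.17. It was higher in YFP control than in naive cells, at 8.14 and 8.02, so the activated arrays lay below all 4 controls. Ell2, an elongation factor of immunoglobulin secretion, fell by 2.02. Genes of marginal zone and B1 cells rose for 5 and fell for 4 of 15, with S1pr3, a sphingosine phosphate receptor of marginal zone B cells, at 6.31 and 5.90 on the naive control arrays and 9.73 and 9.90 on the CD40-activated arrays. In YFP control cells its levels were 9.67 and 9.98. Myof (myoferlin) and the scavenger receptor Cd36 rose by 2.33 and 2.02 (Cd36 by 2.62 and 1.43 without naive control 1 and 2) and were also above the YFP control, by 1.82 and 2.22. Of 2 immunoglobulin constant regions measured, Ighg3 was at 6.47 and 7.82 on the naive control arrays and 9.45 and 9.28 on the CD40-activated arrays and rose by 2.22 ± 0.35, or by 1.55 without naive control 1 and 2.90 without naive control 2. Ighm had a change of 0.27.

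Of 16 receptors that guide lymphocyte traffic 5 fell and 3 rose, and the count that fell was 2 without either naive control array or either CD40-activated array and 3 without either LMP1 array or with array medians subtracted. Cxcr4, the receptor for the stromal chemokine CXCL12, was at 11.45 and 11.44 on the naive control arrays and 8.93 and 9.0 on the CD40-activated arrays and fell by 2.48 ± 0.24 (adjusted p = 0.000148). The YFP control arrays, at 11.11 and 10.39, lay above both activated arrays, with a difference of -1.79 (adjusted p = 0.00132). S1pr1, which leads cells out into blood, fell by 1.26 and Ccr7, which leads them to T cell zones, by 0.75. Ccr6, a receptor of activated and memory B cells, rose by 2.53 ± 0.17, and Cxcr5, the follicle homing receptor, had a change of -0.07. Of 18 integrins and adhesion molecules 10 fell and 3 rose, against 6.65% and 11.0% of all genes. The count that fell was 9 without any of the 4 naive control and CD40-activated arrays, and the count that rose 1 without naive control 2 or with quantile normalization within each array set and 0 without either CD40-activated array. Itgb7, the chain for gut homing, fell by 2.77 ± 0.34, from 9.71 and 9.55 to 6.79 and 6.94, and Selplg, the ligand of P-selectin, by 1.72 ± 0.25. T cells carry both, and their part in these falls was not tested. The CD40-activated minus YFP control values were -1.82 and -1.65. Itgax and Itgam, integrins of myeloid cells, fell by 1.81 and 1.86. Of these, S1pr1 did not pass without naive control 1 or CD40-activated 1, and Ccr7 without either naive control array, either CD40-activated array or either LMP1 array.

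Of 21 cytoskeletal genes 9 rose and 1 fell. Marcks, which ties actin to the plasma membrane, was at 8.22 and 7.65 on the naive control arrays and 10.36 and 10.55 on the CD40-activated arrays and rose by 2.52 ± 0.21. At 8.33 and 8.10, YFP control cells were near the naive ones. Stmn1, which destabilizes microtubules, rose by 2.28, Plek (pleckstrin) by 1.74, Actg1 (gamma actin) by 1.43 and the nuclear lamina gene Lmnb1 by 1.32.

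Genes of cell division rose together. Of 30 DNA replication genes 26 rose and 0 fell (median 1.55), and of 29 mitosis genes 26 rose and 0 fell (median 1.82), against 11.0% of all genes that rose. Without CD40-activated 1, CD40-activated 2 and naive control 2 the counts for replication were 21, 19 and 24 and those for mitosis 19, 20 and 22. Mcm5, a subunit of the replicative helicase, was at 8.16 and 7.69 on the naive control arrays and 10.18 and 10.18 on the CD40-activated arrays and rose by 2.26 ± 0.26 (adjusted p = 0.000389). Ticrr, which fires replication origins, rose by 2.99, Pole, the leading-strand polymerase, by 2.78 and Mcm3 by 2.50. Cep55, Shcbp1 and Wee1 are outside both lists and are named only because they were among the 30 highest changes. Cep55 and Shcbp1, both active at the end of division, rose by 3.33 and 3.08, and Wee1, a kinase that delays mitosis, by 3.47. The naive control arrays were uneven for many of these genes, with a median naive control 1 minus naive control 2 difference of 0.90 over the mitosis list. Top2a, the topoisomerase of chromosome segregation, was at 8.49 and 6.59 on the naive control arrays and 10.15 and 10.11 on the CD40-activated arrays, and its rise of 2.59 ± 0.46 became 3.54 without naive control 1 and 1.64 without naive control 2. Kif15, a spindle motor, rose by 3.37 ± 0.34 (3.97 and 2.76 without naive control 1 and 2). Mki67, the proliferation marker, was already at 10.67 and 9.34 on the naive control arrays and at 11.07 and 10.88 on the CD40-activated ones, and did not pass (adjusted p = 0.0861). Against the YFP control, replication genes had a median of 1.16 and mitosis genes of 1.07, with 22 and 18 members higher.

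Regulators of entry into the cycle rose for 11 of 23 and fell for 3, the counts being 6 without CD40-activated 1 for those that rose and 0 without naive control 1 or either CD40-activated array for those that fell. Cdk4, the kinase that phosphorylates the retinoblastoma protein, was at 8.78 and 8.63 on the naive control arrays and 10.99 and 10.96 on the CD40-activated arrays and rose by 2.27 ± 0.16, and E2f3, a factor that switches on S phase genes, rose by 2.14 ± 0.22. The inhibitor Cdkn1a (p21) rose by 1.46 while the inhibitor Cdkn1b (p27), a brake of resting cells, fell by 1.53. Of 15 genes of DNA repair and checkpoints 11 rose and 0 fell, led by the exonuclease Exo1 (2.50) and the crosslink repair gene Fancd2 (2.22). The count that rose was 7 without CD40-activated 1 or with quantile normalization within each array set and 6 without CD40-activated 2. Targets of p53 rose for 8 of 17 and fell for 2, and in the Bcl2 family the proapoptotic Bid rose by 1.81 ± 0.19 while Bcl2 (-0.12) and Bcl2l1 (-0.49) did not pass. In this group Cdkn1b did not pass without either naive control array or either CD40-activated array.

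The promoters of Mcm5 and Top2a are printed because these genes belong to the groups that moved together. That of Mcm5 lies at chr8:75109259-75109508 on the plus strand, and its capitals mark an E2F site (TTTGGCG or TTTCCCG, either strand) at position -148.
Mcm5: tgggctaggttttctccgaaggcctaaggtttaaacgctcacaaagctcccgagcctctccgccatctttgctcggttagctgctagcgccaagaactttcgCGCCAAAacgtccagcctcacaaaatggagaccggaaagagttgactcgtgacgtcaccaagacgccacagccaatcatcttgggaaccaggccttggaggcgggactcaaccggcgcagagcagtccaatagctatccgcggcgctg
That of Top2a lies at chr11:99024190-99024439 on the minus strand, and its capitals mark 6 CCAAT boxes (CCAAT, or ATTGG on the other strand) between positions -227 and -58.
Top2a: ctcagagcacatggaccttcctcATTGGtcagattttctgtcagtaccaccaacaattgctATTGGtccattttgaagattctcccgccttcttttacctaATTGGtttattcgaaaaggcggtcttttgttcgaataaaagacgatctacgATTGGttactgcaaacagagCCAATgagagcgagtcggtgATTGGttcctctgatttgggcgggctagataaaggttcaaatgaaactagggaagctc
E2F sites were present in 8 of 26 promoters of the replication list (30.8%), in 9.6% of those of genes that rose, in 4.45% of those of genes that fell and in 5.7% of those of all genes tested. CCAAT was present in 19 of 25 mitosis promoters (76%) and in 38.6% of all. The element TTTGAA was present in 10 of 25 mitosis promoters (40%) and in 16% of all.

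Genes that mark resting lymphocytes fell, 13 of 21, with 0 higher, and the count that fell was 8 without naive control 1 or CD40-activated 2 and 6 without CD40-activated 1. Klf2, a factor of quiescence and of lymphocyte traffic, was at 10.62 and 10.39 on the naive control arrays and 7.48 and 7.48 on the CD40-activated arrays and fell by 3.03 ± 0.38 (adjusted p = 0.000654). T cells express Klf2 too. The YFP control arrays were apart, at 9.29 and 7.76, and the difference from them was -1.05 (adjusted p = 0.106). Zfp36l2, an RNA-binding protein that destabilizes mRNAs, fell by 2.23 and Tsc22d3 (GILZ), a glucocorticoid target, by 2.18. Cd55, a complement regulator on resting B cells, was at 10.38 and 10.43 on the naive control arrays and 8.01 and 7.98 on the CD40-activated arrays, with 10.27 and 10.07 on the YFP control arrays. It fell by 2.41 ± 0.16. Cd55 is outside this list and is named only because it was among the genes farthest below both controls. That both activated arrays were below all 4 control arrays was therefore a condition of its choice. Txnip, a brake on glucose uptake, fell by 1.45, and its YFP control minus naive control value was -1.36. Foxo1 (-0.27) and Btg1 (-0.32) did not pass.

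The largest fall of all genes was in the inducible HSP70 genes. Hspa1b was at 12.17 and 10.91 on the naive control arrays and 4.62 and 4.86 on the CD40-activated arrays, a fall of 6.80 ± 0.37, and Hspa1a was at 12.19 and 9.97 on the naive control arrays and 4.52 and 4.63 on the CD40-activated arrays. Both are cytosolic chaperones that stressed cells make. Without naive control 1 and 2 the change of Hspa1b was -6.17 and -7.43, and that of Hspa1a -5.40 and -7.62. Immediate-early genes, transcribed within minutes of a stimulus, fell for 17 of 27 members and rose for 1, Egr3. The count that fell was 9 without naive control 1, 8 without CD40-activated 1 and 10 without CD40-activated 2. Fos, a subunit of AP-1, was at 10.43 and 9.11 on the naive control arrays and 5.40 and 5.48 on the CD40-activated arrays (-3.67 and -4.99 without naive control 1 and 2). Jun, its partner, was at 10.49 and 9.53 on the naive control arrays and 5.42 and 6.30 on the CD40-activated arrays, and Dusp1, a phosphatase of stress kinases, fell by 2.68. The YFP control arrays were at 4.62 and 4.46 for Hspa1b and 5.58 and 5.42 for Fos, and the activated minus YFP control values were 0.20 and -0.06. Zfp36 (tristetraprolin), which destabilizes cytokine mRNAs, fell by 2.45 ± 0.24 and was lower against the YFP control too (-2.06). Naive control cells alone had no time in culture, and its part in these values cannot be told apart from that of anti-CD40. Among the genes named, Jun did not pass without CD40-activated 1.

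Of all 20 heat shock genes 6 fell and 3 rose (1 without CD40-activated 2), the count that fell being 3 without CD40-activated 1. The mitochondrial chaperone Hspa9 rose by 1.08 ± 0.18, the cochaperone Dnajb1 fell by 1.70 ± 0.27, and the constitutive Hspa8 (0.31) and Hsp90aa1 (-0.14) did not pass. The promoter of Hspa1b, the gene with the largest change, lies at chr17:34959239-34959488 on the minus strand. Its capitals mark a pair of inverted heat shock units (GAANNTTC, the same on both strands) at position -104.
Hspa1b: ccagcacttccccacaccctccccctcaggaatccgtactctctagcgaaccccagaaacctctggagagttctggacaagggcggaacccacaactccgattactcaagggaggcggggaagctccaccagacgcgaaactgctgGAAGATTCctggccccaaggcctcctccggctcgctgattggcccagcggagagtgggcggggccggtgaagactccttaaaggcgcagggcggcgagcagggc
This element was present in 6 of 16 promoters of the heat shock list (37.5%), in 6.96% of those of all genes tested, in 7.55% of those of genes that fell and in 6.14% of those of genes that rose.

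Enzymes of cholesterol synthesis rose together. Of 16 enzymes 14 rose and 0 fell, with a median of 2.08, and the counts with single naive control or CD40-activated arrays left out were 12 to 14. Hmgcs1, which makes the precursor HMG-CoA, was at 7.82 and 7.70 on the naive control arrays and 10.49 and 10.41 on the CD40-activated arrays. It rose by 2.69 ± 0.16 or 6.45-fold (adjusted p = 2.2e-05), and the YFP control arrays lay between, at 8.94 and 8.75. Cyp51, which takes a methyl group off lanosterol, rose by 3.0 ± 0.25, Sqle, which adds the oxygen for ring closure, by 2.70 ± 0.20 and Sc5d, a late desaturase, by 2.39 ± 0.23. The members that did not pass were Tm7sf2 (0.22) and Pmvk (-0.10). Against the YFP control 10 enzymes were higher and 0 lower.

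Genes that export sterols or limit their uptake fell. Abca1, which exports cholesterol, was at 9.27 and 9.47 on the naive control arrays and 6.09 and 5.89 on the CD40-activated arrays and fell by 3.38 ± 0.19 (10.4-fold, adjusted p = 1.93e-05). Mylip, which marks the LDL receptor for degradation, was at 10.15 and 10.17 on the naive control arrays and 6.98 and 6.94 on the CD40-activated arrays and fell by 3.20 ± 0.27 (adjusted p = 7.25e-05). Their CD40-activated minus YFP control values were -2.40 and -2.73, and Abcg1, a second exporter, fell by 1.24 ± 0.20. Abca1, Mylip and Abcg1 are known targets of the oxysterol receptor LXR. In the same list of 12 genes for sterol regulation 4 rose, among them Insig1, which retains the SREBP complex in the ER (2.14 ± 0.18), and Stard4, a sterol carrier (1.59 ± 0.29). That count was 2 without CD40-activated 1, 1 without CD40-activated 2 and 7 without either YFP control array. Fatty acid genes rose for 8 and fell for 1 of 13, with the desaturase Fads2 at 2.67 and the synthase Fasn at 2.11. Stard4 did not pass without CD40-activated 2.

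The promoter of Hmgcs1 is printed for the cholesterol group, in which all 13 genes with a promoter had an entry with CCAAT (100%), against 38.6% of all genes tested. It lies at chr13:119690101-119690350 on the plus strand, and the capitals mark 3 CCAAT boxes between positions -237 and -45.
Hmgcs1: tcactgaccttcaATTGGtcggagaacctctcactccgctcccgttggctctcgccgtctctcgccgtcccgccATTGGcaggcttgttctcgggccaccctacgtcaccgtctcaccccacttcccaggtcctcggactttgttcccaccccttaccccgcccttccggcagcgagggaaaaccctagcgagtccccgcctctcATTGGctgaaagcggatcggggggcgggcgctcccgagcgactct

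Genes for the synthesis of nucleotides and proteins rose. Of 21 genes for serine, one-carbon and nucleotide synthesis 17 rose and 1 fell, the former count being 11 without naive control 2 and 10 without either CD40-activated array. Shmt1, which passes the one-carbon unit of serine to folate, was at 5.49 and 5.74 on the naive control arrays and 8.47 and 8.37 on the CD40-activated arrays and rose by 2.81 ± 0.17. Psat1, of serine synthesis, rose by 2.51 ± 0.18 and the folate enzyme Mthfd1 by 1.82 ± 0.29. Against the YFP control 13 members were higher and 0 lower. Ribosome biogenesis genes and partners of MYC rose for 21 and fell for 2 of 31, and the count that rose was 12 without CD40-activated 1 and 11 without CD40-activated 2. Srm (spermidine synthase) rose by 2.12 ± 0.24, the nucleolar factors Pa2g4 and Gnl3 by 1.75 ± 0.16 and 1.70 ± 0.16, and Nop58, a core protein of snoRNA particles, by 1.34 ± 0.22. The MYC antagonists Mxd1 and Mxi1 were those that fell, and Myc itself was at 9.40 and 8.95 on the naive control arrays and 9.32 and 9.19 on the CD40-activated arrays, with no difference that passed. The MYC E-box CACGTG was present in 12.8% of promoters of genes that rose, in 7.82% of all and in 2 of 25 of this list (8%). Aminoacyl-tRNA synthetases, which charge tRNAs, rose for 11 of 18 and fell for 0, the count that rose being 6 without naive control 2 or CD40-activated 2 and 5 without CD40-activated 1, with the lysine enzyme Kars at 1.49 ± 0.17 and the glycine enzyme Gars at 1.20 ± 0.17.

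Protein folding in the endoplasmic reticulum rose for 12 of 17 genes and fell for 0, but that count was 5 without either naive control array or with quantile normalization within each array set, 4 without either CD40-activated array and 6 without either LMP1 array. Pdia3, a disulfide isomerase, rose by 1.17 ± 0.22, while Hspa5 (BiP), the chief sensor chaperone, had a change of -0.07. Proteasome subunits rose for 23 of 30 and fell for 0 (median 0.97), the count that rose being 11 without CD40-activated 1 and 14 without CD40-activated 2. The subunit gene Psmb2 rose by 1.70 ± 0.16 and the subunit gene Psmd1 by 1.52 ± 0.17. Glycolysis genes rose for 6 and fell for 1 of 16, and the count that rose was 3 without CD40-activated 1 and 2 without CD40-activated 2. Pgam1 and Pgk1, enzymes of the pay-off phase, each rose by 1.51, and the glucose transporter Slc2a1 had a change of -0.06. Amino acid transporters rose for 4 and fell for 2 of 11, with 2 without naive control 2 or either LMP1 array or with quantile normalization within each array set, 1 without CD40-activated 1 and 0 without CD40-activated 2. Among them Slc7a5, the leucine importer, rose by 1.27 ± 0.36 (1.98 and 0.57 without naive control 1 and 2). Slc7a5 did not pass without naive control 2, either CD40-activated array or either LMP1 array.

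Part of the mitochondrial genes rose. Of 69 mitochondrial ribosomal proteins 34 rose and 0 fell (median 0.61), and of 72 subunits of oxidative phosphorylation 30 rose and 0 fell (median 0.63). These counts leaned on single arrays: for the ribosomal proteins they were 18 without naive control 2, 13 without CD40-activated 1, 14 without CD40-activated 2 and 22 with quantile normalization within each array set, and for the respiratory chain 18 without naive control 2, 11 without CD40-activated 1 and 17 without CD40-activated 2. The largest rises were those of Mrpl52, of the large mitochondrial ribosomal subunit (2.08 ± 0.18), and of Cox7b, of cytochrome oxidase (2.28 ± 0.17, against 5.13 in YFP control cells). Among cytosolic ribosomal proteins 20% rose and 8.57% fell, against 11.0% and 6.65% of all genes. Cytosolic ribosomal proteins rose for 7 and fell for 3 of 35, and those that rose were 3 without CD40-activated 1, 4 without CD40-activated 2, 18 without either YFP control array and 11 with array medians subtracted.

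**Figure D3:**
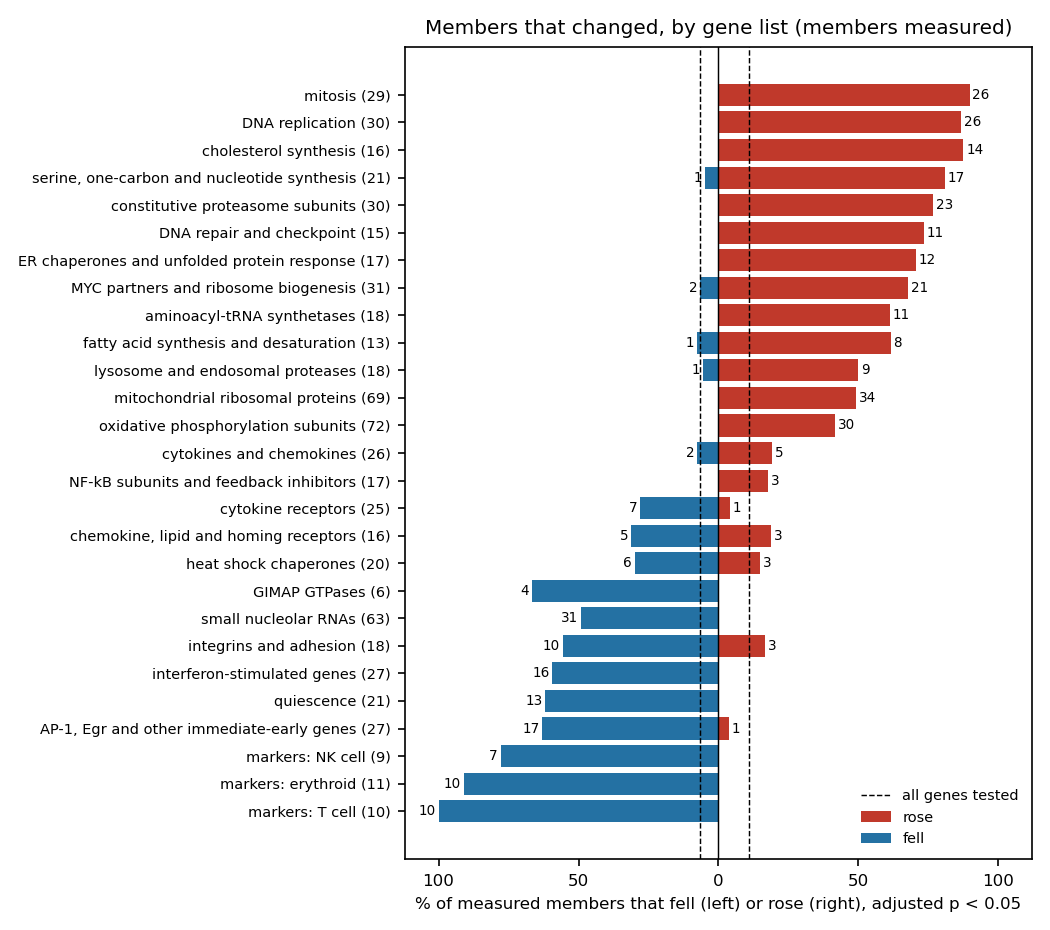
Share of the measured members of 27 gene lists that rose (bars to the right) or fell (bars to the left) in CD40-activated against naive control cells, in percent, with the number of genes beside each bar. Dashed lines mark the shares among all genes, 11.0% and 6.65%: replication, mitosis and cholesterol synthesis lie farthest to the right, and T cell and erythroid markers farthest to the left.

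In antigen presentation single genes passed. Class I members rose for 28.6% and fell for 7.14%, against 11.0% and 6.65% of all genes. Class II members rose for 13.3% and fell for 6.67%, near those shares. Of 14 genes of MHC class I presentation 4 rose (2 without CD40-activated 1 and 1 without CD40-activated 2) and 1 fell, and of 15 of class II presentation 2 rose and 1 fell. For class II, 8 rose without either YFP control array and 4 with array medians subtracted. The class II chains H2-Ab1 (0.50) and H2-Aa (0.41) and their activator Ciita (0.58) did not pass, and the genes that rose were Ifi30, which reduces disulfides in lysosomes (1.19 ± 0.19), and the protease Lgmn (1.00 ± 0.19). H2-Ob, part of the inhibitor of peptide loading, fell by 0.87 ± 0.19. Lysosomal genes rose for 9 of 18 and fell for 1. Grn (progranulin) was at 8.36 and 8.14 on the naive control arrays and 11.87 and 11.69 on the CD40-activated arrays and rose by 3.53 ± 0.18 (adjusted p = 1.58e-05). The gene that fell was Ctse, an endosomal protease of B cells, at 11.17 and 9.70 on the naive control arrays and 5.90 and 6.08 on the CD40-activated arrays, which is 21.8-fold lower (-3.71 and -5.18 on the log2 scale without naive control 1 and 2). Toll-like receptors and their partners rose for 7 of 17 and fell for 1, a count of 4 without naive control 1 or CD40-activated 2 and 3 without CD40-activated 1. Tlr7, a sensor of RNA, rose by 2.07 ± 0.34 and Cd180, a relative of TLR4 on B cells, by 1.56 ± 0.17. Ly96 (MD-2), the partner of TLR4, rose by 3.23 ± 0.59, with the activated arrays apart from each other at 10.36 and 9.19. On the YFP control arrays it was at 8.55 and 10.76, and the difference of 0.12 did not pass (adjusted p = 0.927). Of the 17 members of this list 8 were higher and 0 lower in YFP control than in naive cells. Against the YFP control 1 member was higher and 5 were lower in activated cells. Lgmn did not pass without CD40-activated 2, H2-Ob without naive control 2 or either CD40-activated array, and Ly96 without CD40-activated 1.

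Many genes known to be induced by interferon fell. Of 27 interferon-stimulated genes 16 fell and 0 rose, and the count that fell was 10 without naive control 1 and 8 without either CD40-activated array. Irf7, the factor that amplifies the interferon response, was at 7.48 and 7.54 on the naive control arrays and 5.67 and 5.28 on the CD40-activated arrays and fell by 2.04 ± 0.24 (adjusted p = 0.000511), and at 7.87 and 7.14 on the YFP control arrays, so that both activated arrays were below all 4 controls. Rtp4 fell by 1.63 ± 0.20, Oas2, which senses double-stranded RNA, by 1.60 ± 0.21, and Mx2, an antiviral GTPase, by 1.59 ± 0.20. Rsad2 (viperin) was at 9.01 and 7.66 on the naive control arrays and 5.23 and 5.33 on the CD40-activated arrays, a change of -2.38 without naive control 1 and -3.73 without naive control 2. Isg15, a ubiquitin-like modifier, was at 6.76 and 6.15 on the naive control arrays and 4.93 and 4.98 on the CD40-activated arrays and fell by 1.50 ± 0.21. On the YFP control arrays it was at 5.01 and 4.98. Against the YFP control 12 members were lower and 0 higher. Ifit3 (-0.33), Stat2 (-0.12) and Dhx58 (-0.58) did not pass.

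Further interferon-induced families fell or did not pass. In the p200 family, nuclear DNA sensors and their relatives, 4 of 9 fell and 0 rose. Ifi214 was at 8.32 and 8.14 on the naive control arrays and 5.29 and 5.95 on the CD40-activated arrays and at 10.34 and 9.85 on the YFP control arrays, the highest of the 3 groups. It fell by 2.61 ± 0.24, and Ifi208 and Ifi209 fell by 2.11 and 2.00 and Ifi213 fell by 1.93. Guanylate-binding proteins and immunity-related GTPases, which attack the vacuoles of parasites, fell for 5 of 12 and rose for 0, a count of 3 without naive control 1, either CD40-activated array or either LMP1 array or with array medians subtracted. Of these 12, 7 were higher in YFP control than in naive cells, such as Irgm2 (2.01) and Igtp (2.29), and 8 were lower in activated than in YFP control cells. Strain and sex differ between those 2 groups and cannot be told apart from treatment. GIMAP GTPases, which support lymphocyte survival and are high in T cells, fell for 4 of 6 (2 without naive control 2 or either CD40-activated array), and Gimap3 fell by 2.70 ± 0.21 (-2.03 against the YFP control). These 3 families hold genes with near-identical copies, so their probe sets may read more than 1 member.

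The promoter of Isg15 is printed as the interferon gene with the most matches among those shown in the tables. It lies at chr4:156200819-156201068 on the minus strand, and its capitals mark 3 overlapping interferon-stimulated response elements (GAAA, 2 bases of any kind, GAAA, or the reverse complement) that start between positions -78 and -66.
Isg15: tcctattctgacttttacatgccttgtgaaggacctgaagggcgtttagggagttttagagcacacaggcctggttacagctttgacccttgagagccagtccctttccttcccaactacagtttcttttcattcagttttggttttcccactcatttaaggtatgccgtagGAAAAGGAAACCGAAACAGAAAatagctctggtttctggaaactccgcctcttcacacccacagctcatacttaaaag
The element was present in 8 of 19 promoters of the interferon list (42.1%), in 5.71% of those of genes that fell, in 2.99% of those of genes that rose and in 3.37% of those of all genes tested.

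Chromatin genes moved both ways. Of 15 genes of DNA methylation and Polycomb 6 rose and 4 fell, the count that rose being 3 without CD40-activated 1 and the count that fell 2 without either naive control array or CD40-activated 2 and 1 without CD40-activated 1. Uhrf1, which brings the maintenance methyltransferase to new DNA, was at 7.04 and 6.82 on the naive control arrays and 9.88 and 9.75 on the CD40-activated arrays and rose by 2.89 ± 0.21 (adjusted p = 3.91e-05). At 7.60 and 7.01, the YFP control arrays were near the naive ones. Hells, a remodeller needed for DNA methylation, rose by 2.97 ± 0.18, and Ezh2, the Polycomb methyltransferase of dividing cells, by 1.38 ± 0.23. Its counterpart in resting cells, Ezh1, fell by 1.03 ± 0.19, and the histone demethylase Kdm6b fell by 1.57 ± 0.25. The xenobiotic receptor Ahr was at 5.83 and 5.30 on the naive control arrays and 9.47 and 9.59 on the CD40-activated arrays and rose by 3.97 ± 0.24, while its target Cyp1a1 had a change of -0.01. Ezh1 did not pass without CD40-activated 1.

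Small nucleolar RNAs guide the modification of ribosomal RNA. Of 63 loci 31 fell and 0 rose, with a median of -0.96. Snora30 was at 11.80 and 12.08 on the naive control arrays and 8.14 and 7.93 on the CD40-activated arrays and fell by 3.91 ± 0.24, and Snord90 by 3.09 ± 0.28. The count that fell was 18 without CD40-activated 1. In the YFP control, from the other array set, the loci were lower still (median -2.22, 52 lower than in naive cells), and 36 were higher in activated than in YFP control cells. Many such loci lie in introns of host genes, whose transcripts the probe sets may also read.

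MicroRNA loci are shown with mature sequences because a seed shared between loci makes their target sets overlap. The arrays read the locus and not the mature arm, and arms are printed from RefSeq (GRCm38.p6) with the seed, bases 2 to 8, in capitals. Of 436 loci 17 rose (3.9%) and 36 fell (8.26%), near or below the shares of all genes, and 45 of these 53 loci had a mature entry. Mir146 is the locus of the NF-kB feedback microRNA miR-146a, whose 5p arm lies at chr11:43374435-43374456 on the minus strand. The locus was at 3.0 and 2.87 on the naive control arrays and 6.10 and 5.77 on the CD40-activated arrays. On the YFP control arrays it was at 3.27 and 3.34. Pairs that share a seed were Mir15a with Mir15b (seed AGCAGCA) and Mir130b with Mir301 (seed AGUGCAA), all of which rose, and Mir1193 with Mir379 (seed GGUAGAC), which fell. Mir1981 and Mir28a are shown as further loci that fell.
miR-146a-5p: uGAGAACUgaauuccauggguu
miR-15a-5p: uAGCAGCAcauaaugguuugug
miR-15b-5p: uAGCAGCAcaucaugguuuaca
miR-130b-3p: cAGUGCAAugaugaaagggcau
miR-301a-3p: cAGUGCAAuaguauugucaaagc
miR-1193-5p: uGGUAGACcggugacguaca
miR-379-5p: uGGUAGACuauggaacguagg
miR-1981-5p: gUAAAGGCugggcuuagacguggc
miR-28a-5p: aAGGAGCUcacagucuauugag
Mir146 rose by 3.0 ± 0.20 (adjusted p = 2.81e-05) and was 2.63 above the YFP control (adjusted p = 6.61e-05). Mir15b was at 3.16 and 3.26 on the naive control arrays and 4.97 and 5.20 on the CD40-activated arrays and rose by 1.88 ± 0.25, and Mir15a rose by 0.96 ± 0.24. Mir301, the locus of miR-301a, rose by 1.29 ± 0.16, from 3.86 and 3.72 to 5.13 and 5.02. Mir130b rose by 0.85 ± 0.22, from 4.41 and 3.76 to 4.90 and 4.97. Mir1981 was at 8.04 and 8.34 on the naive control arrays and 5.85 and 5.69 on the CD40-activated arrays and fell by 2.42 ± 0.21, and Mir28a fell by 1.26 ± 0.17. Mir1193 fell by 0.80 ± 0.17, from 5.38 and 5.54 to 4.75 and 4.58. Mir379 fell by 0.77 ± 0.20, from 3.67 and 3.15 to 2.74 and 2.55. Except for Mir15a, the loci of the seed pairs lay below the array median on each naive control and CD40-activated array. Without single arrays the counts were 9 without CD40-activated 1, 8 without CD40-activated 2 and 33 without either YFP control array for loci that rose, and 8 without CD40-activated 1, 10 without CD40-activated 2 and 22 without either LMP1 array for loci that fell. For the loci named, Mir15a, Mir130b and Mir1193 did not pass without naive control 2 or either CD40-activated array, and Mir379 without naive control 1, either CD40-activated array or either LMP1 array.

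Activated cells were also set against the YFP control, which was itself also set against the naive cells. Between YFP control and naive cells 3986 genes (18.5%) differed, 2352 higher (10.9%) and 1634 lower (7.59%), with 4.99% and 3.08% past 1 log2. Between activated and YFP control cells 2970 genes (13.8%) differed, 1667 higher (7.75%) and 1303 lower (6.06%), with 3.94% and 2.96% past 1 log2. Since the changes of activated and of YFP control cells share the naive arrays, they are given side by side only, without a measure of likeness. For mitosis the medians were 1.82 and 0.82, for replication 1.55 and 0.56, for cholesterol synthesis 2.08 and 1.08, for immediate-early genes -1.01 and -0.73, and for interferon-stimulated genes -0.86 and -0.00.

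**Figure D4:**
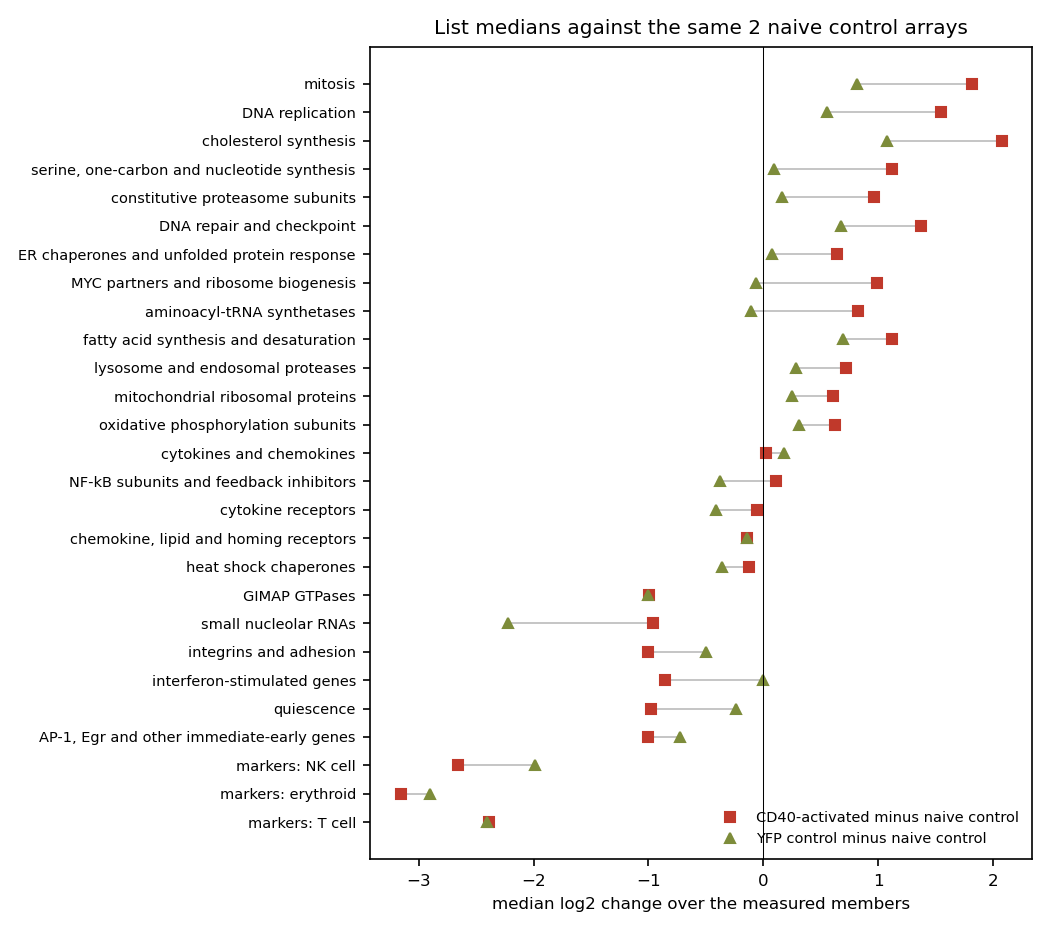
Median log2 change from naive control of 27 gene lists (vertical axis), for CD40-activated cells (squares) and YFP control cells (triangles), on the horizontal axis in log2. T cell and erythroid markers coincide near or below -2 for both, while for replication the square is at 1.55 and the triangle at 0.56.

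Genes at which the activated arrays stood apart from all 4 control arrays were ranked by the lesser of both changes. That separation was therefore a condition of their choice. Lilrb4a, Il9r, Ppfibp2, Mreg and Cfp led those above. Mreg (melanoregulin), which acts in lysosome maturation, was at 5.85 and 6.33 on the naive control arrays and 11.03 and 11.04 on the CD40-activated arrays, with 7.88 and 7.85 on the YFP control arrays, and rose by 4.95 ± 0.19 or 30.8-fold (adjusted p = 5.11e-06). Against the YFP control the difference was 3.17 (adjusted p = 1.7e-05). Cfp (properdin), which stabilizes the alternative complement convertase, was at 7.43 and 7.29 on the naive control arrays and 11.09 and 10.90 on the CD40-activated arrays. On the YFP control arrays it was at 7.74 and 8.03. Ppfibp2 (liprin beta) was at 6.34 and 5.89 on the naive control arrays and 9.81 and 9.94 on the CD40-activated arrays and rose by 3.76 ± 0.21. Abcb1b, a multidrug exporter, rose by 3.60 ± 0.19, the vasodilator peptide Adm by 2.55 ± 0.22 and the chemokine receptor Ccr1 by 2.73 ± 0.22. Lilrb4a, described above, was at 7.81 and 9.46 on the YFP control arrays. Among the genes below, Neurl3, a ubiquitin ligase, was at 11.46 and 11.51 on the naive control arrays and 7.06 and 7.25 on the CD40-activated arrays, with 11.60 and 11.09 on the YFP control arrays. It fell by 4.33 ± 0.26 (20.1-fold, adjusted p = 2.2e-05), and the difference from the YFP control was -4.19. Rasgrp2, which activates Rap1 for integrin adhesion, was at 9.68 and 9.53 on the naive control arrays and 5.73 and 5.97 on the CD40-activated arrays. Cmah, which makes a sialic acid that activated B cells lose, was at 10.76 and 10.79 on the naive control arrays and 8.65 and 8.60 on the CD40-activated arrays and at 11.24 and 11.25 on the YFP control arrays. Acp5 (tartrate-resistant phosphatase) fell by 2.67 ± 0.24 and the nucleotide kinase Cmpk2, an interferon target, by 2.13 ± 0.26.

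**Figure D5:**
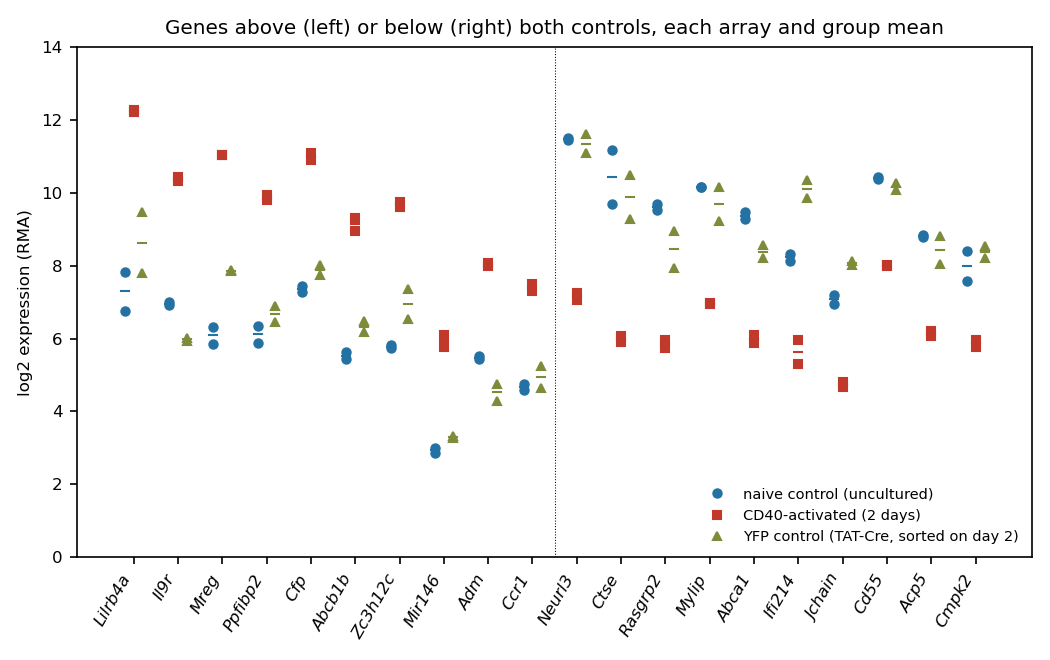
Log2 level (vertical axis) of 20 genes, 10 on each side of a dotted line, on the 2 naive control, 2 CD40-activated and 2 YFP control arrays (points). A bar marks each group mean. Left of the line the CD40-activated points lie above all 4 control points, and right of it they lie below them. That separation was a condition of the choice of these genes. Il9r is at 10.31 and 10.42 against control levels no higher than 6.99.

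Replicates of a group also differed, which bears on single values. The genes most above on naive control 1 compared with naive control 2 included Trim10, Kel and Slfn14, of red cell precursors, and Hspa1a, Fosb and Top2a, and the erythroid and mitosis lists had median differences of 1.48 and 0.90. Ung, a uracil glycosylase of antibody diversification, was lower on naive control 1 (5.47 and 7.01), and its change of 1.12 did not pass. The CD40-activated arrays differed most at Snord13, a small nucleolar RNA (9.93 and 12.29), and among the next were Mir186 (5.42 and 3.73), Cd209a (5.12 and 3.91), a lectin of dendritic cells, and Ly96. Their T cell list had a mean level of 6.13 and 5.83.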

How the data were processed

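RNA was measured on whole-transcript arrays (TRIzol extraction and WT PLUS labelling, per the labels' protocols). The deposited values are log2 expression per probe set, which the authors background-corrected, normalized and summarised with RMA in oligo. The submitters' processing notes name both, and versions are not given in the sources used here. The values carry 2 decimals, and 1 table holds all 8 arrays. Symbols came from the platform annotation, and 616 probe sets with several symbols and 2508 with none were left out.

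A linear model of 4 group means over all 8 arrays was run in R 4.3.3 by limma 3.58.1 (lmFit, then eBayes), with 4 residual and 5.75 prior degrees of freedom. Two-sided p-values for 21515 genes had the Benjamini-Hochberg adjustment, and the threshold was 0.05. Only 2 arrays per group limit the precision.

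The 67 gene lists (1005 symbols, 890 measured, 115 not analysed here) and the choice of this comparison were made with earlier results of these data known. Named genes are list members, the 30 highest and 30 lowest changes with no overlap between arrays, the 15 genes farthest from both controls in each direction, and the 10 genes with the largest replicate differences in each direction. Gene models without a settled name were left out. On simulated data the procedure found 0 of 67 genes changed by 0.5 log2, 21 of 67 changed by 1 and 59 of 66 changed by 2, and called 3 of 21315 others. The simulation gave a gene the same spread in every group, whereas the spread between real replicates differed by group. These rates may therefore not hold for this comparison. Alternatives were other eBayes settings, scalings, probe set rules, filters, array weights, a replicate block, fewer groups and each array left out.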

Additional observations from a re-analysis of the deposited data

How the results depend on the processing

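The count of 3803 changed genes was 3824 with trend and robust fitting, 3826 without genes below the 25th percentile, 3764 with the mean over probe sets, 4654 with array weights, 4108 with only the 2 groups fitted and 3894 over every probe set with 1 symbol. With 1 array left out it ranged from 1576 to 5631 (higher 1043 to 3335, lower 511 to 2296). For YFP control minus naive control the range was 2695 to 5955 (higher 1547 to 3130, lower 1048 to 2825), and array weights gave 2020 (1277 higher, 743 lower) and only the 2 groups 1537 (990 and 547). For CD40-activated minus YFP control it was 843 to 5471 (higher 477 to 2979, lower 366 to 2492), and only the 2 groups gave 1667 (981 and 686). A left-out array removes 1 residual degree of freedom as well as its values. The replicate block gave 3647 genes (2274 higher, 1373 lower) and moved no count of genes by over 1.5 times. The numbers share only a label, since same-numbered arrays did not deviate together (r = -0.069 across genes). Over the alternatives other than left-out arrays, single genes kept direction and side of the threshold in 8874 cases, gained the threshold in 224, lost it in 185 and reversed in 1. That was Nop56, a core protein of snoRNA particles, at 0.74 as reported and -1.10 with the mean over probe sets. These 2 values differ only in the probe sets used, so at least 1 other probe set of Nop56 fell. Why its probe sets differed was not tested. List counts stayed within 1.5 times in 978 cases and moved in 94. Signal over background could not be set against the values, which come without detection calls.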

Other observations

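Single regulators outside the groups above also passed the test. Circadian clock genes rose for 6.67% and fell for 6.67%, near or below the 11.0% and 6.65% of all genes. Feedback regulators of signalling rose for 20% and fell for 15%, and redox genes for 23.5% and 11.8%. Of 15 circadian clock genes 1 rose and 1 fell: Bhlhe40, a repressor of the clock, rose by 2.71 ± 0.23, and Nr1d2 (REV-ERB beta), another, was at 7.47 and 7.68 on the naive control arrays and 6.47 and 6.25 on the CD40-activated arrays and fell by 1.22 ± 0.17. The clock genes Arntl (0.08), Per1 (-0.14) and Dbp (0.20) did not pass. Of 20 feedback regulators of G protein, cytokine and Ras signalling 4 rose and 3 fell, led by the Ras inhibitors Spred1 (1.26 ± 0.19) and Spred2 (1.06 ± 0.20). Without single arrays the number that rose was 2 without naive control 1 or CD40-activated 2 or with quantile normalization within each array set and 1 without CD40-activated 1, and the number that fell 0 without naive control 1, 1 without either CD40-activated array or either LMP1 array or with array medians subtracted and 6 without either YFP control array. In the redox list 4 of 17 rose (2 without CD40-activated 1) and 2 fell (0 without any 1 of the naive control and CD40-activated arrays and 1 without either LMP1 array), with Txn1 (thioredoxin) at 7.22 and 7.69 on the naive control arrays and 9.15 and 9.17 on the CD40-activated arrays and its reductase Txnrd1 up by 1.27 ± 0.15. The YFP control minus naive control values were 2.92 for Txn1, which passed, and 0.11 for Txnrd1, which did not. Of 11 Notch pathway genes 1 rose (9.09%) and 2 fell (18.2%), against 11.0% and 6.65% of all genes. Rbpj, the nuclear partner of Notch, rose by 1.03 ± 0.24, and the target genes Hes1 and Dtx1 fell by 0.89 and 1.06. Spred2 did not pass without CD40-activated 1, Rbpj without naive control 1 or either CD40-activated array, Hes1 without either CD40-activated array, and Dtx1 without either naive control array or either CD40-activated array.

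Among probe sets left out of the comparison, 77 of 616 with several symbols were higher and 37 lower, and of 2508 with no symbol 165 were higher and 164 lower, in a fit of the whole table. Of 640 genes with several probe sets, 3 had probe sets called in opposite directions.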
